A study of Mus musculus with 8 samples.

Results

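The genes described here encode the enzymes that add methyl groups to histone lysines and to protein arginines, and those that remove methyl groups from histone lysines, in mouse morulae cultured with or without an inhibitor of p300 and CBP. Members were chosen by name: every gene of the deposited table whose symbol belongs to the Kdm, Kmt, Setd, Setdb, Suv39h, Nsd, Prmt, Ehmt or Smyd families or is Ezh1 or Ezh2, together with Carm1, Dot1l, Eed, Suz12 and Ash1l. The rule found 63 genes, and 62 of the 18257 genes in the table remained once the Y-linked Kdm5d was left out. They comprise 36 lysine methyltransferase genes (counted with the subunits of Polycomb repressive complex 2), 9 arginine methyltransferase genes and 17 demethylase genes.

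All embryos were labelled wild-type morulae, and no strain or embryo age is given for them. The control group was cultured in KSOM embryo medium with 0.1% DMSO and the treated group in KSOM with 2 µM A485, a catalytic inhibitor of the acetyltransferases p300 and CBP, in both cases starting at the 4-cell stage. The culture protocol names the blastocyst as its end point, whereas the samples carry the label morula. Each group had 4 libraries of polyadenylated RNA, numbered 1 to 4, and each library pooled 3 embryos freed of the zona pellucida. The labels call a pool a biological replicate but do not say whether pools came from separate litters or days, so the p-values below measure the spread between pools. They do not give the DMSO content of the A485 medium.

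Histone methylation is written by SET-domain enzymes (and by Dot1l, which has none) and removed by the flavin-dependent Kdm1 enzymes or the iron-dependent JmjC enzymes. Methylation at H3K4 and H3K36 (lysines of histone H3) accompanies active genes, while methylation at H3K9 and H3K27 accompanies repressed chromatin. The arginine methyltransferases act on histone tails and also on splicing factors, ribosomal proteins and signalling proteins. In cleavage embryos these marks are rebuilt after fertilization, and enzymes such as Carm1, Kdm1a and Kdm5b are studied there for their part in lineage allocation and genome activation.

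Among the arginine methyltransferases, 1 member rose strongly while most others fell, and the promoter windows of the gene that rose and of 3 that fell are shown so that their sequences can be compared. Each runs from 250 bases before to 50 bases after the RefSeq start on the build GRCm38.p6, in the direction of transcription. Capitals mark 3 letter strings on either strand: TGACG (or CGTCA), the half-site of the cAMP response element, which binds CREB, a partner of CBP; CCAAT (or ATTGG), the CCAAT box; and TATAAA (or TTTATA), the TATA box.
Prmt1 (chr7:44986371-44986670, minus strand): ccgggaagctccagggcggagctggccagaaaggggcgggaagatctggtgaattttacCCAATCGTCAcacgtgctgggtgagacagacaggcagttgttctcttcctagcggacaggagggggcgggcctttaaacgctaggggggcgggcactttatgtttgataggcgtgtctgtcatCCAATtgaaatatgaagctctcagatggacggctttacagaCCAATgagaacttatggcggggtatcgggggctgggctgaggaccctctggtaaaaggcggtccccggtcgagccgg
Prmt5 (chr14:54517421-54517720, minus strand): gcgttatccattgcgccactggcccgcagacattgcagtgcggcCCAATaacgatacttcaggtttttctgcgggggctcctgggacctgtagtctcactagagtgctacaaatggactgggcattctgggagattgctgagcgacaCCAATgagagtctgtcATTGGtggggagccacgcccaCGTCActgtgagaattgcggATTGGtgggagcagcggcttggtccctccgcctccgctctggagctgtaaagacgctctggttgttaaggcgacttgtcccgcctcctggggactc
Prmt7 (chr8:106210804-106211103, plus strand): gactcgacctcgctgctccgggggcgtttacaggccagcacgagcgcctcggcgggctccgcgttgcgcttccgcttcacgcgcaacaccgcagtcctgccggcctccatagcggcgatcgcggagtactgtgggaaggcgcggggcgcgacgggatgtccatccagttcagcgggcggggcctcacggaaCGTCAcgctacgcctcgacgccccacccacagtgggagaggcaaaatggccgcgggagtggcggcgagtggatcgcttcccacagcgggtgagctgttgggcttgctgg
Prmt2 (chr10:76237816-76238115, minus strand): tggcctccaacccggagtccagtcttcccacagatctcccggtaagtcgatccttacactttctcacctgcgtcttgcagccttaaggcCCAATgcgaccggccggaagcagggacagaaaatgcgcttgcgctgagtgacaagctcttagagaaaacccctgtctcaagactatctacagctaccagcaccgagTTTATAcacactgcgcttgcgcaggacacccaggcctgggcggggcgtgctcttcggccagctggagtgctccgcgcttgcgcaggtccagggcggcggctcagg
The Prmt1 window holds 1 TGACG and 3 CCAAT strings, with the TGACG string, read as CGTCA, directly after the first CCAAT. The Prmt5 window holds 1 TGACG and 4 CCAAT strings, and the Prmt7 window 1 TGACG and no CCAAT. The Prmt2 window holds 1 CCAAT and 1 TATAAA string and no TGACG. Windows were found for 48 of the 62 members. TGACG was present in 29.2% of them, against 21.0% of all 27025 gene promoters in the table and 31.1% of the 10413 promoters of tested genes. By call, it was in 5 of 15 windows of members that fell (Prmt1, Prmt5, Prmt7, Prmt9 and Smyd5) and in 2 of 10 of members that rose (Kdm4d and Suv39h1). It was also in 6 of 22 windows of members that did not pass. The windows of Prmt3 and Prmt6, which fell too, hold no TGACG, so the 4 windows shown do not stand for the whole class. CCAAT was in 47.9% of member windows and in 39.8% of those of tested genes, and TATAAA in 4.17% (Prmt2 and Smyd1) and 7.12%. The full element TGACGTCA, which contains TGACG on both strands, was in 4.17% of member windows (Prmt9 and Suv39h2) and 3.26% of those of tested genes. CpG dinucleotides numbered 17 in the median window of members that fell, 25 for members that rose and 26.5 for those that did not pass the test, with 20 for all tested genes. These matches describe letters in the windows, and no binding was measured.

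Levels were read on 2 scales. TPM, the deposited length-scaled transcript share, accounts for length and is used to rank genes, while CPM, the count scaled to library size with TMM (a composition factor), is used for each comparison of libraries. Total estimated counts per library were 23641781 to 25677701. The libraries labelled A485 1 and 2 resembled each other (correlation of log2 CPM 0.964), as did A485 3 and 4 (0.956), more than libraries of opposite pairs did (0.923 to 0.948), while control pairs correlated at 0.974 to 0.982, so members whose call changes when either A485 pair is omitted are given below. The morula marker list fixed for this work (8 genes, Pou5f1 and Nanog among them) summed to 1335 to 1816 CPM in control and 370.2 to 616.3 CPM in A485, where Cdx2, a trophectoderm factor, was at 0.366 to 3.20 CPM. Of that list Upp1 overlapped between groups, and so did Cdh1 (35.6 to 55.3 CPM in control, 42.0 to 75.3 CPM in A485). The 9 cumulus and granulosa markers summed to 24.1 to 40.7 CPM in control and 23.0 to 46.9 CPM in A485, nearly all of it Amhr2, while Has2, Fshr, Lhcgr and Cyp19a1 were at 0 in control. The 8 fibroblast and blood markers summed to 9.001 to 20.4 CPM in control and 102.5 to 331.4 CPM in A485, nearly all of it Hba-a1, an alpha-globin gene, with the beta-globin genes Hbb-bt and Hbb-bs at or near 0. The summed morula markers were lower, and the summed blood and fibroblast markers higher, in A485 throughout, and their part in the changes below was not tested. In pooled embryos, fewer cells of a type and less RNA per cell cannot be told apart.

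In control morulae the arginine methyltransferase gene Prmt1 was the most abundant member at 248.6 ± 56.2 TPM (SD, n = 4), followed by Smyd5 (99.7 ± 12.2 TPM), Eed (90.6 ± 12.2 TPM), Prmt5 (68.4 ± 3.46 TPM), Prmt7 (37.2 ± 3.46 TPM) and Smyd3 (36.2 ± 2.82 TPM). Smyd5 and Eed lay within their spread of each other, as did Prmt7 and Smyd3. At the other end Setd7 (0.0325 ± 0.0403 TPM) and Kmt2a (0.0175 ± 0.00957 TPM) were near the 0.01 steps in which TPM is given. After A485 Prmt1 still ranked first at 173.3 ± 16.3 TPM (SD, n = 4), Smyd3 was second at 53.7 ± 11.96 TPM and Eed next at 41.8 ± 2.25 TPM. Prmt2 moved from rank 33 to rank 4 (27.5 ± 9.51 TPM), Nsd2 from 54 to 33 and Nsd3 from 37 to 21, whereas Kdm2b went from rank 8 to 22 and Smyd5 from 2 to 6. For Smyd3 the ratio of count to FPKM implies a transcript of 13930 bases, 2.03 times its longest GENCODE transcript (6871 bases), the highest such ratio among members, so its rank on the TPM scale is uncertain.

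**Figure D1:**
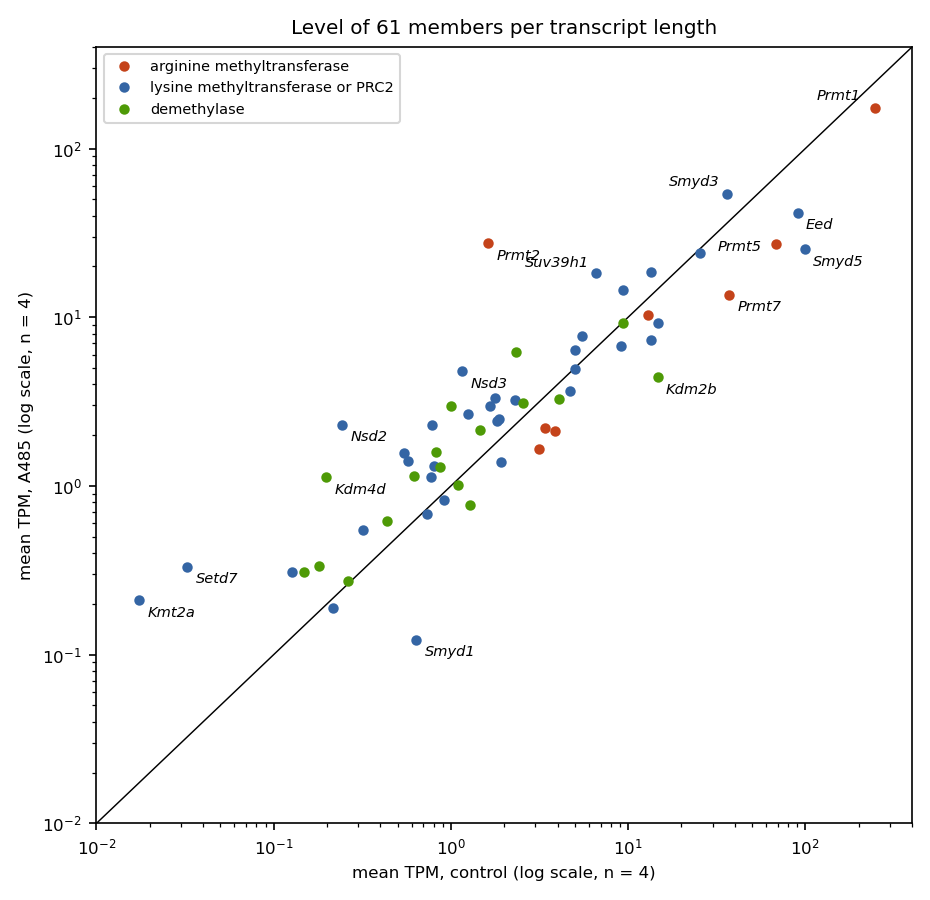
Mean TPM of the 61 members that passed the filter on low counts, control on the x axis and A485 on the y axis, both logarithmic, 1 point per gene coloured by class, with the line of equal level. Prmt2 (1.63 and 27.5 TPM) lies far above the line, and Smyd5 (99.7 and 25.3 TPM) and Smyd1 (0.638 and 0.123 TPM) lie below it.

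The comparison of A485 with control asks which of these enzyme genes change in embryos cultured with an inhibitor of p300 and CBP. Of 62 members 61 passed the filter on low counts, the exception being Prmt8 with 2 counts over the control libraries and none in A485. At a threshold of 0.05, after Benjamini-Hochberg adjustment over the 12936 genes that entered the quasi-likelihood test of edgeR, 15 members rose and 17 fell, and 11 of the risen and 10 of the fallen changed at least 2-fold. Among all genes tested 29.7% rose and 25.0% fell, against 24.6% and 27.9% of members. Of the 12936 genes, 2874 rose and 1844 fell at least 2-fold. The libraries of the 2 groups did not overlap for 31 of the 61 members, against 51.5% of all genes. The median log2 fold change was 0.15 for members and 0.09 for all genes, so the set as a whole lay near the background in each of these measures. Scaling by total counts, without a composition factor, moved the median of all genes to 0.37, and 23 members then rose and 11 fell. Each change is relative to the other genes of a library. Within-group spread was larger in A485 for 41 members (67.2%, against 74.1% of all genes). The authors' deposited table gave a q-value under 0.05 for 15 members in the higher and 17 in the lower direction. It included 31 of the 32 called here, with the same signs, plus Ash1l but not Kdm4b.

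**Figure D2:**
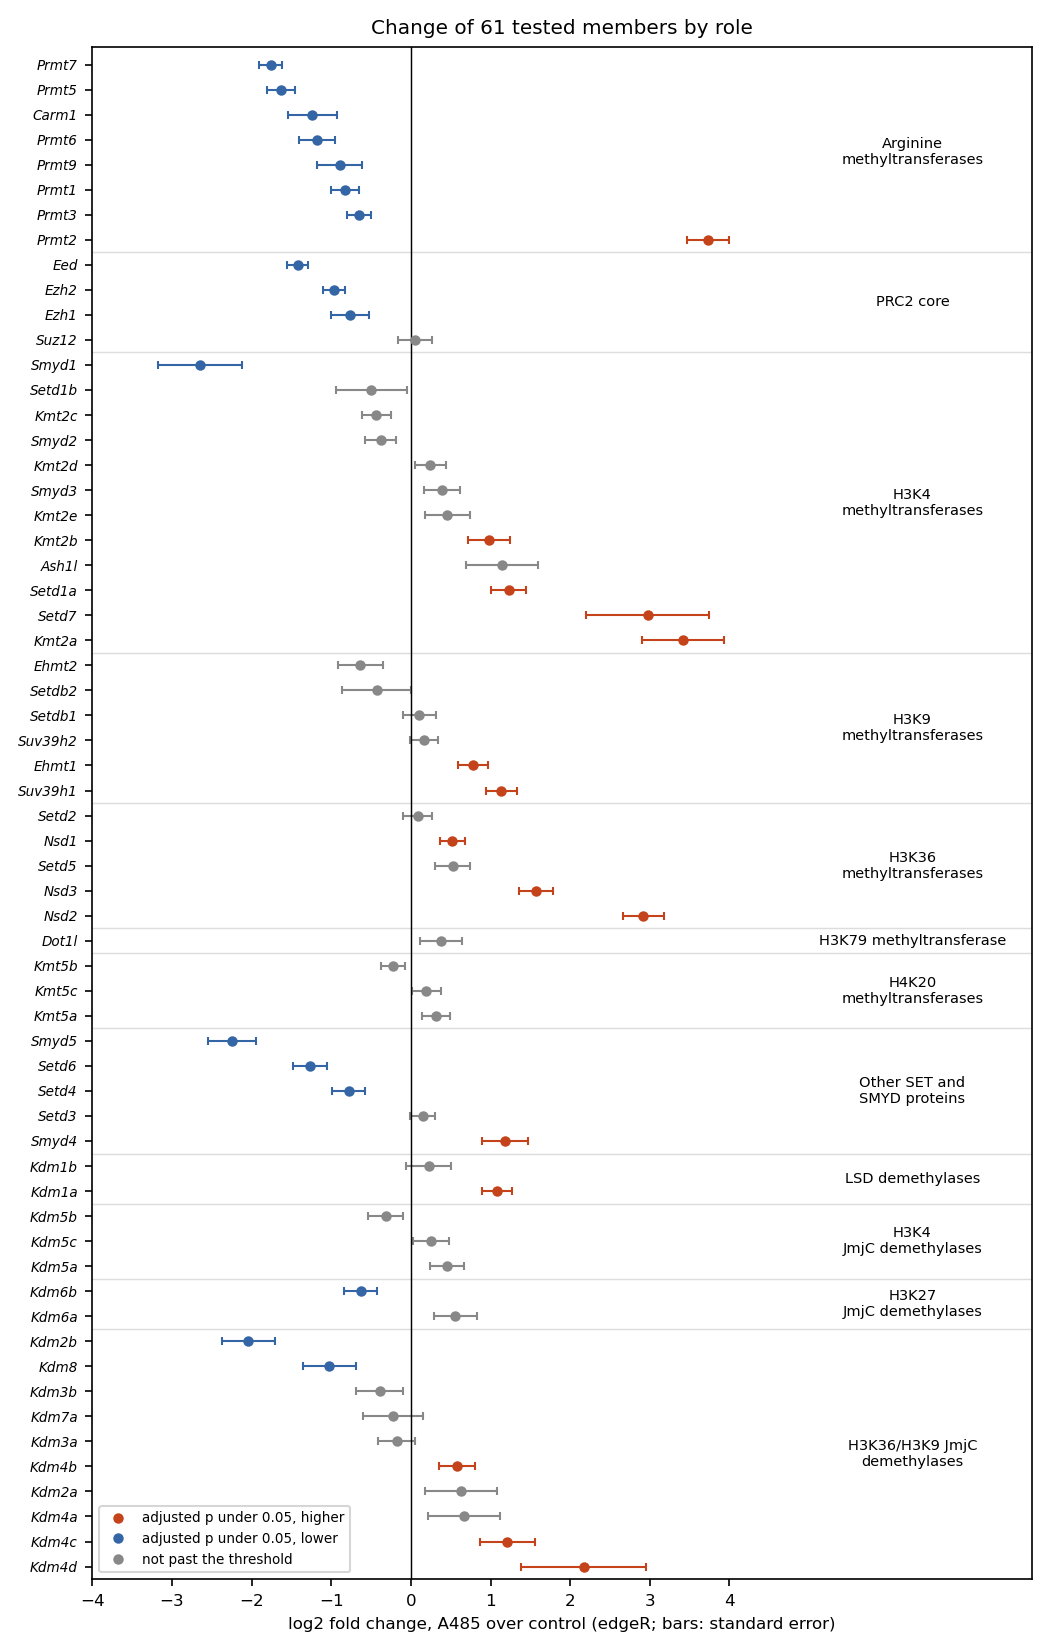
Log2 fold change of A485 over control with its standard error (x axis) for the 61 tested members (y axis), grouped by role, with red for higher, blue for lower and grey for not past the threshold. The arginine methyltransferases other than Prmt2 lie left of 0, at -1.76 to -0.65, and Prmt2 lies at 3.73.

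Arginine methyltransferases went mostly down: 7 of the 8 tested fell and Prmt2 rose, and all 8 had groups that did not overlap. Of all genes 25.0% fell, and 51.5% did not overlap. As many fell with the RLE and upper-quartile scalings, 5 under total-count scaling and 6 without control replicate 3. Prmt1, which makes most asymmetric dimethylarginine in cells, was measured at 228, 366, 333 and 261 CPM in control libraries 1 to 4 and 192, 176, 134 and 169 CPM in A485 libraries 1 to 4. Every A485 library lay below every control library, with a log2 fold change of -0.82 ± 0.18 (SE, adjusted p = 0.0028 by edgeR). Prmt5, the main source of symmetric dimethylarginine, was at 187, 169, 173 and 186 CPM in control libraries 1 to 4 and 74.1, 59.9, 40.3 and 56.1 CPM in A485 libraries 1 to 4. Every A485 library lay far below the control libraries, with a log2 fold change of -1.64 ± 0.18 (SE, adjusted p = 6.21e-05 by edgeR). Prmt7, which makes monomethylarginine, stood at 79.97, 76.2, 87.3 and 81.4 CPM in control libraries 1 to 4 and 27.9, 25.4, 22.2 and 20.2 CPM in A485 libraries 1 to 4. The groups were far apart, with a log2 fold change of -1.76 ± 0.14 (SE, adjusted p = 1.76e-05 by edgeR).

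Carm1, also called PRMT4, methylates arginines of histone H3 and is known for unequal activity between the blastomeres of cleavage embryos. It was measured at 7.44, 10.9, 10.5 and 11.8 CPM in control libraries 1 to 4 and 5.01, 6.07, 2.25 and 3.92 CPM in A485 libraries 1 to 4. The A485 libraries lay below the control libraries, with replicate 3 lowest, and the log2 fold change was -1.24 ± 0.30 (SE, adjusted p = 0.00613 by edgeR). Prmt6, which methylates an arginine near the tip of histone H3, was at 8.85, 10.1, 8.04 and 11.1 CPM in control libraries 1 to 4 and 5.17, 4.72, 3.402 and 3.51 CPM in A485 libraries 1 to 4. It fell with a log2 fold change of -1.18 ± 0.22 (SE, adjusted p = 0.0014 by edgeR). Prmt3, whose main known substrate is the ribosomal protein Rps2, and Prmt9, which methylates the splicing factor Sf3b2, had log2 fold changes of -0.65 ± 0.15 (SE, adjusted p = 0.00365 by edgeR; 30.7 to 33.2 CPM in control, 17.6 to 22.9 CPM in A485) and -0.90 ± 0.28 (SE, adjusted p = 0.0197 by edgeR; 7.67 to 11.5 CPM in control, 2.82 to 6.54 CPM in A485). The call of Prmt9 was lost without control replicate 3 (-0.82, adjusted p = 0.0515 by edgeR), and both were lost under total-count scaling (adjusted p = 0.07 and 0.0694).

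Prmt2, a weak arginine methyltransferase that binds nuclear receptors as a coactivator, was measured at 3.92, 3.43, 2.46 and 3.25 CPM in control libraries 1 to 4 and 31.3, 32.8, 50.9 and 58.6 CPM in A485 libraries 1 to 4. Every A485 library lay far above every control library, replicates 3 and 4 were the highest, and the log2 fold change was 3.73 ± 0.27 (SE, adjusted p = 1.03e-05 by edgeR). Its part of the summed arginine methyltransferase TPM went from 0.442 ± 0.1298% to 10.7 ± 4.01% (SD, n = 4 per group). Prmt1 made up 65.0 ± 5.43% of that sum in control and 67.2 ± 2.72% in A485, while Prmt5 went from 18.4 ± 3.39% to 10.5 ± 1.47% and Prmt7 from 9.93 ± 1.42% to 5.30 ± 0.620%. The sum itself was 379.2 ± 56.4 TPM in control and 257.7 ± 15.9 TPM in A485. Prmt2 lies on chromosome 10 at 76207226 to 76237865, Prmt5 on chromosome 14 at 54507182 to 54517470 and Prmt7 on chromosome 8 at 106211054 to 106251694 (GRCm38.p6).

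**Figure D3:**
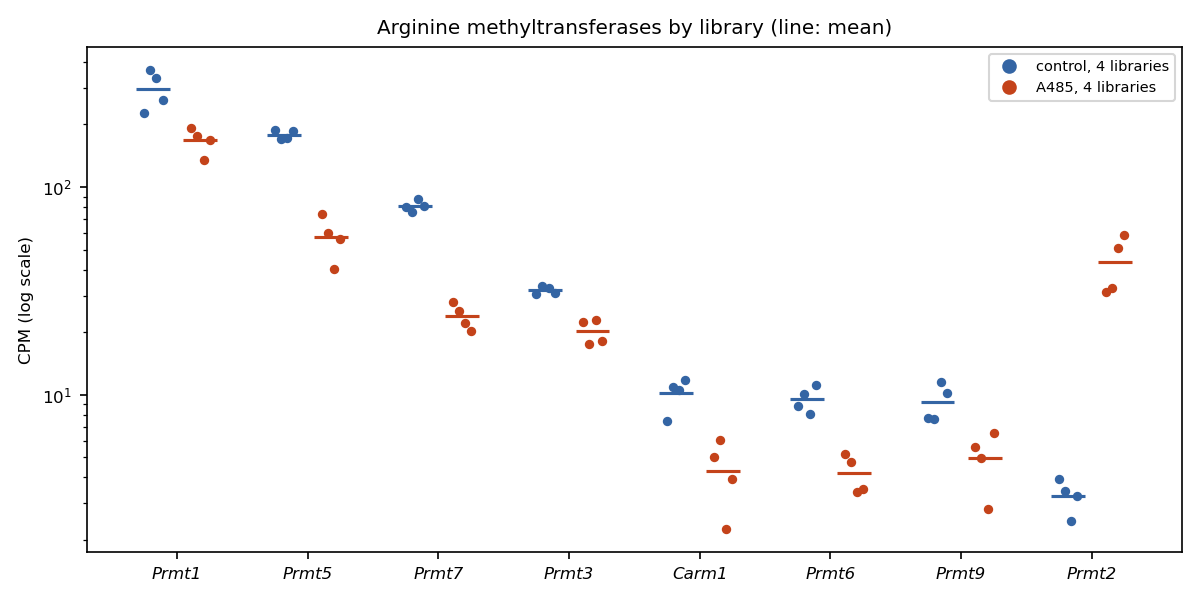
CPM on a logarithmic axis of the 8 tested arginine methyltransferase genes in each of 4 control (blue) and 4 A485 (red) libraries, with a line at the group mean. Prmt5 lies at 169 to 187 CPM in control and 40.3 to 74.1 CPM in A485, and Prmt2 at 2.46 to 3.92 and 31.3 to 58.6 CPM.

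Of 4 genes listed as partners of the arginine methyltransferases, 2 fell, against 25.0% of all genes. Whether so short a list differs from all genes was not tested. Clns1a, which encodes the pICln subunit that directs Prmt5 to spliceosomal Sm proteins, went from 432 ± 33.2 CPM in control to 102 ± 15.4 CPM in A485 (SD, n = 4 each), with a log2 fold change of -2.08 ± 0.14 (SE, adjusted p = 8.65e-06 by edgeR). Coprs, which directs Prmt5 to histones, had -0.68 ± 0.13 (SE, adjusted p = 0.00153 by edgeR). Wdr77, the MEP50 partner of Prmt5 in the methylosome, had a log2 fold change of -0.16 ± 0.15 (SE, adjusted p = 0.393 by edgeR) and did not pass.

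Polycomb repressive complex 2 deposits H3K27 methylation through Ezh1 or Ezh2 and needs Eed and Suz12 to do so. Of these 4 core genes, Eed, Ezh2 and Ezh1 fell (75.0%, against 25.0% of all genes), and Suz12 did not pass. Eed, whose product binds trimethylated H3K27 and stimulates the enzyme, was measured at 176, 188, 202 and 157 CPM in control libraries 1 to 4 and 75.1, 59.04, 63.3 and 71.99 CPM in A485 libraries 1 to 4. All A485 libraries were far below the lowest control library, with a log2 fold change of -1.42 ± 0.13 (SE, adjusted p = 3.23e-05 by edgeR). Ezh2, the catalytic subunit of dividing cells, was at 36.2, 39.2, 36.2 and 38.4 CPM in control libraries 1 to 4 and 21.3, 19.9, 17.3 and 18.2 CPM in A485 libraries 1 to 4. The 4 control libraries lay close together and the A485 libraries below them, and the log2 fold change was -0.97 ± 0.13 (SE, adjusted p = 0.000239 by edgeR). Ezh1, the less active catalytic paralog, was at 8.68, 7.09, 6.67 and 10.6 CPM in control libraries 1 to 4 and 5.66, 5.49, 3.505 and 4.77 CPM in A485 libraries 1 to 4. It fell with a log2 fold change of -0.76 ± 0.24 (SE, adjusted p = 0.0206 by edgeR), and the call was lost without control replicate 4 (-0.64, adjusted p = 0.0655 by edgeR), without A485 replicates 3 and 4 (-0.56, adjusted p = 0.0888 by edgeR) and under total-count scaling (adjusted p = 0.0998).

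Suz12, the scaffold of the complex, was measured at 18.1, 23.2, 21.5 and 26.5 CPM in control libraries 1 to 4 and 26.6, 23.3, 14.9 and 27.7 CPM in A485 libraries 1 to 4. The groups overlapped, and the log2 fold change was 0.051 ± 0.21 (SE, adjusted p = 0.856 by edgeR), with a 95% interval of -0.47 to 0.57. Of the 8 accessory genes tested, 3 rose and 3 fell (37.5% each, against 29.7% and 25.0% of all genes). Jarid2, which recruits the complex to its targets, went from 77.2 ± 11.4 CPM in control to 31.1 ± 8.68 CPM in A485 (SD, n = 4 each), with a log2 fold change of -1.31 ± 0.21 (SE, adjusted p = 0.000555 by edgeR). The X-linked Rbbp7, a histone chaperone shared with several complexes, went the other way from 1345 ± 261 CPM in control to 2841 ± 727 CPM in A485 (SD, n = 4 each), with 1.08 ± 0.21 (SE, adjusted p = 0.00144 by edgeR). Phf19, a Polycomb-like subunit, rose at a low level by 2.66 ± 0.66 (SE, adjusted p = 0.00623 by edgeR) on the log2 scale, and Rbbp4 did not pass, with -0.22 ± 0.13 (SE, adjusted p = 0.184 by edgeR). The call of Phf19 was lost without A485 replicates 3 and 4 (1.79, adjusted p = 0.0608 by edgeR).

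The NSD genes encode enzymes of H3K36 dimethylation, and Nsd1, Nsd2 and Nsd3 were each called higher, as were 29.7% of all genes. Nsd2, the gene deleted in Wolf-Hirschhorn syndrome, was measured at 1.89, 1.31, 1.5 and 2.41 CPM in control libraries 1 to 4 and 10.2, 13.7, 14.3 and 15.8 CPM in A485 libraries 1 to 4. All A485 libraries lay far above the control libraries, with a log2 fold change of 2.92 ± 0.26 (SE, adjusted p = 2.40e-05 by edgeR). Nsd3 was at 4.98, 4.198, 5.58 and 5.103 CPM in control libraries 1 to 4 and 10.1, 16.97, 16.7 and 15.3 CPM in A485 libraries 1 to 4. The groups did not overlap, A485 replicate 1 was the lowest treated library, and the log2 fold change was 1.57 ± 0.21 (SE, adjusted p = 0.000218 by edgeR). Nsd1, the gene of Sotos syndrome, was at 20.1, 25.8, 19.2 and 22.1 CPM in control libraries 1 to 4 and 33.5, 26.01, 31.6 and 33.8 CPM in A485 libraries 1 to 4. The highest control library and the lowest A485 library, both replicate 2, lay close together, the log2 fold change was 0.52 ± 0.16 (SE, adjusted p = 0.017 by edgeR), and the call was lost without control replicate 1 (0.47, adjusted p = 0.0587 by edgeR), without control replicate 3 (0.42, adjusted p = 0.0703 by edgeR) and without A485 replicates 3 and 4 (0.45, adjusted p = 0.061 by edgeR).

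Setd2, which makes H3K36 trimethylation during transcription, was measured at 13.5, 20.5, 15.5 and 16.1 CPM in control libraries 1 to 4 and 19.1, 19.6, 14.9 and 16.04 CPM in A485 libraries 1 to 4. The groups overlapped, with a log2 fold change of 0.086 ± 0.18 (SE, adjusted p = 0.708 by edgeR) and a 95% interval of -0.35 to 0.53. Setd5, which has been linked to H3K36 methylation, had a log2 fold change of 0.53 ± 0.22 (SE, adjusted p = 0.0648 by edgeR; 11.4 to 20.9 CPM in control, 17.4 to 28.8 CPM in A485). It passed without control replicate 1 (0.645, adjusted p = 0.0444 by edgeR), A485 replicate 1 (0.638, adjusted p = 0.026 by edgeR) or A485 replicates 1 and 2 (0.637, adjusted p = 0.0408 by edgeR) and in 3 other alternatives.

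Of 12 tested genes for enzymes assigned to H3K4, Kmt2a, Kmt2b, Setd1a and Setd7 rose (33.3%) and Smyd1 fell (8.33%). Among all genes 29.7% rose and 25.0% fell. Kmt2a, also known as MLL1, was very low in control embryos at 0.132, 0.497, 0.167 and 0.278 CPM in control libraries 1 to 4 and 2.42, 1.65, 3.74 and 3.77 CPM in A485 libraries 1 to 4. These values rest on 24 counts over the control group, and the log2 fold change was 3.41 ± 0.51 (SE, adjusted p = 0.000374 by edgeR). Kmt2b, which trimethylates H3K4 at promoters in the oocyte and early embryo, was at 2.91, 3.39, 2.75 and 4.59 CPM in control libraries 1 to 4 and 4.76, 8.38, 6.703 and 7.13 CPM in A485 libraries 1 to 4. The groups lay close but did not overlap, with a log2 fold change of 0.98 ± 0.26 (SE, adjusted p = 0.00945 by edgeR). Setd1a, which trimethylates H3K4 in pluripotent cells, was at 4.23, 4.42, 5.12 and 5.43 CPM in control libraries 1 to 4 and 8.701, 10.1, 11.5 and 14.8 CPM in A485 libraries 1 to 4. A485 replicate 4 was the highest library, and the log2 fold change was 1.23 ± 0.22 (SE, adjusted p = 0.000992 by edgeR).

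Kmt2d, which monomethylates H3K4 at enhancers, was measured at 15.8, 17.6, 13.4 and 19.1 CPM in control libraries 1 to 4 and 20.5, 19.97, 13.9 and 23.5 CPM in A485 libraries 1 to 4. The groups overlapped and the log2 fold change was 0.24 ± 0.20 (SE, adjusted p = 0.318 by edgeR). Its paralog Kmt2c had groups that did not overlap and a log2 fold change of -0.43 ± 0.18 (SE, adjusted p = 0.0674 by edgeR; 14.4 to 19.9 CPM in control, 9.901 to 14.4 CPM in A485), and it passed without A485 replicate 1 (-0.54, adjusted p = 0.0298 by edgeR), without A485 replicates 1 and 2 (-0.575, adjusted p = 0.0431 by edgeR) and in DESeq2 (adjusted p = 0.041). Setd7, which monomethylates H3K4 and many other proteins, was at 0.264, 0.677, 0 and 0.0928 CPM in control libraries 1 to 4 and 2.17, 1.83, 1.74 and 2.48 CPM in A485 libraries 1 to 4. It rested on 23 counts over the control group, with a log2 fold change of 2.97 ± 0.78 (SE, adjusted p = 0.0082 by edgeR), or 4.08 without control replicate 2. Smyd1, best known from heart and skeletal muscle, was at 3.13, 2.03, 1.83 and 1.62 CPM in control libraries 1 to 4 and 0.534, 0.476, 0.102 and 0.259 CPM in A485 libraries 1 to 4. It fell with a log2 fold change of -2.65 ± 0.53 (SE, adjusted p = 0.00191 by edgeR), or -3.57 without A485 replicates 1 and 2.

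The remaining members of this group did not pass. Kmt2e and Setd1b had log2 fold changes of 0.46 ± 0.28 (SE, adjusted p = 0.194 by edgeR; 2.29 to 3.11 CPM in control, 2.89 to 5.29 CPM in A485) and -0.50 ± 0.44 (SE, adjusted p = 0.364 by edgeR; 1.12 to 3.25 CPM in control, 0.813 to 2.298 CPM in A485). Ash1l, a Trithorax-group protein now better known for H3K36 methylation, had 1.14 ± 0.45 (SE, adjusted p = 0.0521 by edgeR; 0.587 to 1.902 CPM in control, 1.77 to 3.78 CPM in A485), and passed without control replicate 4 (1.44, adjusted p = 0.0363 by edgeR), without A485 replicate 4 (1.29, adjusted p = 0.0439 by edgeR) and in 4 other alternatives. Smyd2 and Smyd3, which also methylate cytoplasmic proteins, had -0.38 ± 0.19 (SE, adjusted p = 0.123 by edgeR; 35.2 to 40.6 CPM in control, 20.5 to 40.1 CPM in A485) and 0.39 ± 0.22 (SE, adjusted p = 0.162 by edgeR). Smyd3 was at 507, 632, 492 and 456 CPM in control libraries 1 to 4 and 887, 848, 573 and 433 CPM in A485 libraries 1 to 4. The first 2 A485 libraries were above all control libraries and replicate 4 was below them, and without replicate 4 both genes passed (Smyd2 -0.57, adjusted p = 0.0158 by edgeR, and Smyd3 0.56, adjusted p = 0.0296 by edgeR). Without A485 replicates 3 and 4 they passed at -0.61 and 0.73 (adjusted p = 0.015 by edgeR and 0.00278).

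Of 14 genes for noncatalytic subunits of the H3K4 methyltransferase complexes, 6 rose and 3 fell (29.7% and 25.0% of all genes). Without control replicate 3 the count was 3 higher and 3 lower. The 6 that rose were Psip1, Ncoa6, Bod1l, Hcfc2, Paxip1 and Pagr1a. Hcfc2, Paxip1 and Pagr1a lost their calls without control replicate 3 (edgeR adjusted p of 0.0669, 0.0782 and 0.0682). Hcfc2 also lost its call without A485 replicate 4 (1.04, adjusted p = 0.0796 by edgeR) and without A485 replicates 3 and 4 (0.618, adjusted p = 0.305 by edgeR). Paxip1 and Pagr1a also lost theirs in other alternatives. Of the shared core, Wdr5 and Dpy30 fell, and Rbbp5 and Ash2l did not pass. Wdr5 went from 393 ± 20.5 CPM in control to 114 ± 34.5 CPM in A485 (SD, n = 4 each), with a log2 fold change of -1.78 ± 0.19 (SE, adjusted p = 5.91e-05 by edgeR). Psip1, which tethers Kmt2a complexes to chromatin, rose from 3.27 ± 0.749 CPM in control to 14.3 ± 3.32 CPM in A485 (SD, n = 4 each), with 2.13 ± 0.25 (SE, adjusted p = 8.99e-05 by edgeR). Ncoa6, found in the Kmt2c and Kmt2d complexes, had 2.01 ± 0.28 (SE, adjusted p = 0.000246 by edgeR). Wdr5 and Dpy30 fell while the catalytic Kmt2a, Kmt2b and Setd1a rose.

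**Figure D4:**
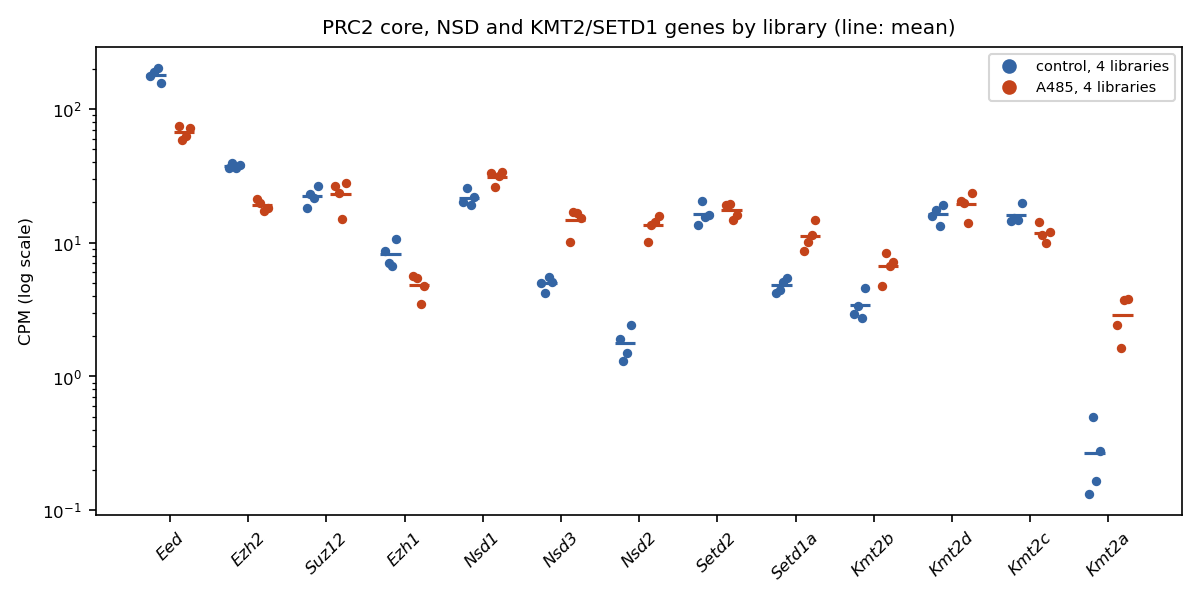
CPM on a logarithmic axis of PRC2 core, NSD, Setd2, Setd1a and KMT2 genes in each of 4 control (blue) and 4 A485 (red) libraries, with a line at the group mean. Eed lies at 157 to 202 CPM in control and 59.0 to 75.1 CPM in A485, and Nsd2 at 1.31 to 2.41 and 10.2 to 15.8 CPM, while Suz12 overlaps.

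For H3K9 methylation, 2 of 6 methyltransferase genes rose (33.3%, near the 29.7% of all genes) and the others did not pass. Suv39h1, the X-linked enzyme of pericentromeric H3K9 trimethylation, was measured at 21.7, 17.3, 20.3 and 19.7 CPM in control libraries 1 to 4 and 38.1, 43.1, 59.9 and 32.5 CPM in A485 libraries 1 to 4. The groups did not overlap, A485 replicate 3 was the highest, and the log2 fold change was 1.14 ± 0.20 (SE, adjusted p = 0.000838 by edgeR). Its autosomal paralog Suv39h2 was at 10.1, 8.67, 11.6 and 9.88 CPM in control libraries 1 to 4 and 11.4, 11.4, 12.4 and 9.904 CPM in A485 libraries 1 to 4. The groups overlapped, with 0.17 ± 0.17 (SE, adjusted p = 0.433 by edgeR) and a 95% interval of -0.25 to 0.59. Because pools may hold different numbers of male and female embryos, 4 Y-linked genes were summed: they lay at 22.6 to 38.4 CPM in control and 16.3 to 53.4 CPM in A485. The part of embryo sex in the values of Suv39h1 and of other X-linked genes, Rbbp7 and Phf8 among them, was not tested.

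Ehmt1 and Ehmt2 encode GLP and G9a, which together dimethylate H3K9. Ehmt1 was measured at 6.87, 6.05, 6.83 and 5.89 CPM in control libraries 1 to 4 and 11.7, 10.7, 12.7 and 8.98 CPM in A485 libraries 1 to 4. It rose, with groups that did not overlap and a log2 fold change of 0.78 ± 0.18 (SE, adjusted p = 0.00488 by edgeR). Ehmt2 was at 16.1, 16.5, 17.2 and 22.7 CPM in control libraries 1 to 4 and 14.1, 12.9, 5.55 and 14.2 CPM in A485 libraries 1 to 4. Its groups did not overlap either, but A485 replicate 3 stood far below the rest. The log2 fold change was -0.64 ± 0.28 (SE, adjusted p = 0.0796 by edgeR) and passed without A485 replicates 1 and 2 (-0.90, adjusted p = 0.0481 by edgeR). Setdb1, which trimethylates H3K9 at retroelements and is essential at implantation, was at 8.94, 7.49, 8.38 and 9.93 CPM in control libraries 1 to 4 and 8.99, 8.597, 7.42 and 12.4 CPM in A485 libraries 1 to 4. Its groups overlapped, with 0.11 ± 0.21 (SE, adjusted p = 0.685 by edgeR). Setdb2 had -0.43 ± 0.43 (SE, adjusted p = 0.422 by edgeR; 1.67 to 2.91 CPM in control, 0.628 to 2.298 CPM in A485). The deposited annotation places Ehmt2 and Kdm5a on scaffolds, whereas RefSeq places them on chromosomes 17 and 6, so their values are uncertain if reads were shared between copies, which was not tested.

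Of 11 partners of H3K9 methylation, 2 rose (18.2%) and 4 fell (36.4%), against 29.7% and 25.0% of all genes. Wiz, a zinc finger protein that stabilises the G9a and GLP dimer, went from 84.9 ± 8.41 CPM in control to 18.9 ± 6.26 CPM in A485 (SD, n = 4 each), with a log2 fold change of -2.17 ± 0.25 (SE, adjusted p = 8.59e-05 by edgeR). Trim28, the corepressor that brings Setdb1 to KRAB zinc finger proteins, had -0.79 ± 0.22 (SE, adjusted p = 0.0112 by edgeR), and Atf7ip, which protects Setdb1, had 0.65 ± 0.17 (SE, adjusted p = 0.00857 by edgeR). Uhrf1, a reader of methylated H3K9, did not pass, with 0.22 ± 0.28 (SE, adjusted p = 0.526 by edgeR). Trim28 lost its call without A485 replicates 3 and 4 (-0.53, adjusted p = 0.0616 by edgeR) and Atf7ip without A485 replicates 1 and 2 (0.50, adjusted p = 0.0571 by edgeR).

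The H4K20 and H3K79 methyltransferases did not pass the threshold. Kmt5a, which monomethylates H4K20 in mitosis, was measured at 27.8, 26.6, 23.04 and 21.5 CPM in control libraries 1 to 4 and 26.1, 25.8, 39.4 and 32.3 CPM in A485 libraries 1 to 4. Its A485 replicates 3 and 4 were above all control libraries and replicates 1 and 2 within them. The log2 fold change was 0.32 ± 0.18 (SE, adjusted p = 0.152 by edgeR), and the gene passed without A485 replicates 1 and 2 (0.515, adjusted p = 0.0264 by edgeR) and under total-count scaling (0.62, adjusted p = 0.0242 by edgeR). Kmt5b and Kmt5c, which add further methyl groups, had -0.23 ± 0.15 (SE, adjusted p = 0.222 by edgeR; 16.2 to 19.1 CPM in control, 13.5 to 17.01 CPM in A485) and 0.19 ± 0.18 (SE, adjusted p = 0.39 by edgeR; 9.84 to 14.3 CPM in control, 12.01 to 16.4 CPM in A485). Dot1l was at 4.58, 4.47, 5.54 and 8.95 CPM in control libraries 1 to 4 and 8.25, 5.85, 8.61 and 7.91 CPM in A485 libraries 1 to 4. The groups overlapped, with control replicate 4 the highest of all, and the log2 fold change was 0.38 ± 0.27 (SE, adjusted p = 0.252 by edgeR) with a 95% interval of -0.28 to 1.03. Of its 4 listed partners 3 were tested, and Mllt1, Mllt6 and Mllt10 did not pass. Mllt6 had -1.25 ± 0.55 (SE, adjusted p = 0.0794 by edgeR), and passed without A485 replicate 1 (-2.17, adjusted p = 0.000891 by edgeR), without A485 replicates 1 and 2 (-2.46, adjusted p = 0.000724 by edgeR), in DESeq2 (adjusted p = 0.0436) and in limma-voom (adjusted p = 0.0152).

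Among 5 other SET and SMYD genes 3 fell and 1 rose. Of all genes 25.0% fell and 29.7% rose, and whether so small a group differs from them was not tested. Smyd5, a SET and MYND domain protein that was the second most abundant member in control, was measured at 216, 285, 246 and 233 CPM in control libraries 1 to 4 and 85.5, 52.6, 27.8 and 40.5 CPM in A485 libraries 1 to 4. All A485 libraries lay far below the control libraries and A485 replicates 3 and 4 were lowest. The log2 fold change was -2.25 ± 0.30 (SE, adjusted p = 0.000209 by edgeR), or -2.86 without A485 replicates 1 and 2. Setd6, which methylates the NF-kappa-B subunit RelA, was at 17.3, 15.9, 21.2 and 21.9 CPM in control libraries 1 to 4 and 5.66, 7.24, 9.12 and 9.76 CPM in A485 libraries 1 to 4. It fell with a log2 fold change of -1.26 ± 0.21 (SE, adjusted p = 0.000742 by edgeR). Smyd4 was at 1.32, 2.57, 2.12 and 1.67 CPM in control libraries 1 to 4 and 3.82, 3.88, 4.695 and 5.1 CPM in A485 libraries 1 to 4. It rose, with groups that did not overlap and a log2 fold change of 1.18 ± 0.29 (SE, adjusted p = 0.00579 by edgeR). Setd4 fell with -0.78 ± 0.21 (SE, adjusted p = 0.00941 by edgeR; 13.2 to 21.04 CPM in control, 7.54 to 12.2 CPM in A485), a call lost under total-count scaling (adjusted p = 0.093), and Setd3, which methylates actin on histidine, had 0.15 ± 0.16 (SE, adjusted p = 0.446 by edgeR; 32.4 to 38.8 CPM in control, 33.1 to 45.6 CPM in A485) and did not pass.

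Of the 17 demethylase genes 4 rose (23.5%) and 3 fell (17.6%), against 29.7% and 25.0% of all genes. The number that rose was 2 in limma-voom and when control replicate 2, 3 or 4, A485 replicate 1 or 2, or both of the latter were omitted. Kdm1a, which encodes LSD1, the H3K4 demethylase of the CoREST complex, was measured at 6.17, 8.62, 5.71 and 7.89 CPM in control libraries 1 to 4 and 13.4, 14.7, 16.1 and 15.9 CPM in A485 libraries 1 to 4. The groups did not overlap, and the log2 fold change was 1.08 ± 0.19 (SE, adjusted p = 0.000915 by edgeR). Kdm1b, the oocyte enzyme needed for maternal imprints, was at 4.18, 4.97, 4.04 and 3.48 CPM in control libraries 1 to 4 and 3.41, 4.68, 7.38 and 3.95 CPM in A485 libraries 1 to 4. It overlapped between groups, with 0.22 ± 0.28 (SE, adjusted p = 0.531 by edgeR). Among the partners of Kdm1a, Rcor1 and Gse1 rose and Rcor2 fell. Rcor1, which encodes CoREST itself, had a log2 fold change of 1.33 ± 0.34 (SE, adjusted p = 0.00704 by edgeR), Gse1 of 1.49 ± 0.23 (SE, adjusted p = 0.000412 by edgeR) and Rcor2 of -1.26 ± 0.42 (SE, adjusted p = 0.0261 by edgeR). The call of Rcor2 was lost when control replicate 1, 2 or 4 or A485 replicate 2 or 4 was omitted (edgeR adjusted p of 0.0524 to 0.062). The call of Rcor1 was lost without A485 replicates 3 and 4 (0.83, adjusted p = 0.0517 by edgeR).

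Kdm2b, a CpG island reader and H3K36 demethylase that recruits a variant Polycomb complex, was measured at 46.5, 70.5, 56.6 and 45.7 CPM in control libraries 1 to 4 and 19.99, 17.3, 7.14 and 8.87 CPM in A485 libraries 1 to 4. A485 replicates 1 and 2 lay well below control and replicates 3 and 4 lower still. The log2 fold change was -2.04 ± 0.33 (SE, adjusted p = 0.000572 by edgeR), or -2.79 without A485 replicates 1 and 2. Its paralog Kdm2a had 0.63 ± 0.45 (SE, adjusted p = 0.256 by edgeR; 0.667 to 1.58 CPM in control, 0.821 to 2.25 CPM in A485). Kdm8 was at 3.92, 3.29, 2.25 and 3.201 CPM in control libraries 1 to 4 and 1.64, 2.01, 1.599 and 0.961 CPM in A485 libraries 1 to 4. It fell with -1.02 ± 0.33 (SE, adjusted p = 0.0228 by edgeR), but not past the threshold without control replicate 1 (-0.92, adjusted p = 0.0685 by edgeR), control replicate 2 (-0.98, adjusted p = 0.0608 by edgeR), A485 replicates 3 and 4 (-0.79, adjusted p = 0.0902 by edgeR) or under total-count scaling (adjusted p = 0.0922).

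The Kdm4 genes encode demethylases of H3K9 trimethylation, and 3 of the 4 rose, as did 29.7% of all genes. Kdm4c was measured at 5.86, 5.598, 3.79 and 2.27 CPM in control libraries 1 to 4 and 5.42, 11.6, 12.5 and 11.1 CPM in A485 libraries 1 to 4. A485 replicate 1 lay among the controls and the other 3 above them, with a log2 fold change of 1.21 ± 0.35 (SE, adjusted p = 0.0137 by edgeR), which did not pass without A485 replicates 3 and 4 (0.95, adjusted p = 0.0787 by edgeR). Kdm4d was at 1.15, 0.497, 0.25 and 0.232 CPM in control libraries 1 to 4 and 3.57, 4.43, 1.26 and 0.3696 CPM in A485 libraries 1 to 4. A485 replicates 1 and 2 were high and replicate 4 lay among the controls. The log2 fold change was 2.17 ± 0.78 (SE, adjusted p = 0.037 by edgeR), 2.85 without control replicate 1 (adjusted p = 0.021 by edgeR), 2.90 without A485 replicates 3 and 4 (adjusted p = 0.00207 by edgeR) and 0.60 without A485 replicates 1 and 2 (adjusted p = 0.547 by edgeR). Its call was also lost when control replicate 2, 3 or 4 was left out, or A485 replicate 1 or 2 (edgeR adjusted p of 0.0768 to 0.111) and in limma-voom (adjusted p = 0.137). Kdm4b had 0.58 ± 0.23 (SE, adjusted p = 0.0492 by edgeR; 3.92 to 5.17 CPM in control, 5.21 to 8.78 CPM in A485) and lost its call in 12 of 19 alternatives, among them those leaving out any 1 control library, or A485 replicate 1, 2 or 3 (edgeR adjusted p of 0.0652 to 0.14) and without A485 replicates 1 and 2 (adjusted p = 0.22 by edgeR), and Kdm4a had 0.67 ± 0.45 (SE, adjusted p = 0.231 by edgeR; 0.406 to 0.958 CPM in control, 0.732 to 1.52 CPM in A485).

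The 3 H3K4 demethylases Kdm5a, Kdm5b and Kdm5c did not pass. Kdm5b, which removes the broad H3K4 trimethylation of the oocyte genome and ranked second to Kdm2b among demethylases in control by TPM, was measured at 71.3, 53.1, 67.5 and 53.3 CPM in control libraries 1 to 4 and 62.9, 59.96, 31.2 and 42.9 CPM in A485 libraries 1 to 4. A485 replicates 1 and 2 lay among the controls and replicates 3 and 4 below them. The log2 fold change was -0.32 ± 0.22 (SE, adjusted p = 0.252 by edgeR), and -0.745 without A485 replicates 1 and 2 (adjusted p = 0.00817 by edgeR). Kdm5a had 0.45 ± 0.22 (SE, adjusted p = 0.101 by edgeR; 3.58 to 4.79 CPM in control, 4.68 to 5.99 CPM in A485) and the X-linked Kdm5c 0.25 ± 0.22 (SE, adjusted p = 0.368 by edgeR; 8.19 to 11.8 CPM in control, 7.84 to 14.1 CPM in A485).

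Of the 2 H3K27 demethylases, Kdm6b fell and Kdm6a did not pass. Kdm6b, or JMJD3, was measured at 24.2, 27.4, 33.8 and 28.9 CPM in control libraries 1 to 4 and 12.9, 16.9, 18.9 and 24.9 CPM in A485 libraries 1 to 4. A485 replicate 4 lay within the control range and the log2 fold change was -0.63 ± 0.21 (SE, adjusted p = 0.0253 by edgeR). The call was lost without A485 replicate 2 (-0.595, adjusted p = 0.0608 by edgeR), without A485 replicates 1 and 2 (-0.401, adjusted p = 0.102 by edgeR), with the 5 CPM filter (adjusted p = 0.061) and under total-count scaling (adjusted p = 0.229). The X-linked Kdm6a, or UTX, was at 4.05, 2.799, 3.46 and 5.29 CPM in control libraries 1 to 4 and 6.07, 5.27, 4.49 and 7.17 CPM in A485 libraries 1 to 4. The groups overlapped, with 0.56 ± 0.27 (SE, adjusted p = 0.0977 by edgeR), and it passed with the 5 CPM filter (0.68, adjusted p = 0.0359 by edgeR) and under total-count scaling (0.83, adjusted p = 0.0216 by edgeR).

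The other JmjC members Kdm3a, Kdm3b and Kdm7a had log2 fold changes of -0.18 ± 0.23 (SE, adjusted p = 0.544 by edgeR; 7.96 to 15.5 CPM in control, 8.01 to 11.5 CPM in A485), -0.39 ± 0.30 (SE, adjusted p = 0.288 by edgeR; 7.88 to 8.63 CPM in control, 3.0 to 8.95 CPM in A485) and -0.23 ± 0.38 (SE, adjusted p = 0.636 by edgeR; 1.896 to 4.13 CPM in control, 1.29 to 3.28 CPM in A485) and did not pass. Among 8 JmjC proteins outside the naming rule 2 rose and 2 fell (25.0% each, near the 29.7% and 25.0% of all genes). Phf2, an H3K9 demethylase, rose from 0.318 ± 0.148 CPM in control to 3.35 ± 1.44 CPM in A485 (SD, n = 4 each) with 3.37 ± 0.51 (SE, adjusted p = 0.000374 by edgeR), and Phf8, which demethylates H3K9 and H4K20, had 1.10 ± 0.33 (SE, adjusted p = 0.016 by edgeR). Phf8 lost its call without control replicate 3 (0.90, adjusted p = 0.0544 by edgeR) and without A485 replicates 3 and 4 (0.87, adjusted p = 0.0875 by edgeR). Riox2, a ribosomal oxygenase, had -1.17 ± 0.19 (SE, adjusted p = 0.000625 by edgeR). Over all 55 partner genes tested 15 rose and 16 fell, or 27.3% and 29.1%, near the 29.7% and 25.0% of all genes.

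Pairs of paralogs that share a substrate were compared within each library, as the share of the first gene in the pair's summed TPM, using for each of 13 pairs a two-sided exact test that permutes the libraries in all 70 ways, and Benjamini-Hochberg adjustment over the pairs. In 8 pairs the groups did not overlap and p was 0.0286, the smallest the design allows (adjusted p = 0.0464). Groups did not overlap in CPM for 51.5% of all genes taken singly. Shares of other gene pairs were not computed, so whether 8 of 13 is more than for other pairs was not tested. Suv39h1 made up 74.1 ± 1.53% in control and 84.3 ± 2.199% in A485 (SD, n = 4 per group) of its pair with Suv39h2. Ehmt1 made up 21.2 ± 3.505% in control and 42.9 ± 13.7% in A485 (SD, n = 4 per group) of the sum with Ehmt2, with A485 replicate 3 the highest at 63.1%. Kdm6a made up 13.3 ± 3.601% in control and 26.9 ± 5.99% in A485 (SD, n = 4 per group) of the sum with Kdm6b, and Kdm1a 72.7 ± 3.96% in control and 83.3 ± 3.69% in A485 (SD, n = 4 per group) of that with Kdm1b. The share of Kmt2c against Kmt2d went down, 54.2 ± 2.76% in control and 42.5 ± 3.94% in A485 (SD, n = 4 per group), as did that of Kmt5b against Kmt5c, 47.9 ± 5.37% in control and 38.9 ± 1.96% in A485 (SD, n = 4 per group). Kdm2a made up 1.03 ± 0.448% in control and 7.71 ± 5.197% in A485 (SD, n = 4 per group) of the sum with Kdm2b. Kmt2a made up 2.9 ± 1.43% in control and 13.4 ± 4.54% in A485 (SD, n = 4 per group) of the sum with Kmt2b, from control TPM values near the 0.01 steps of the deposited table.

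Ezh1 against Ezh2 was 11.6 ± 2.13% in control and 13.1 ± 1.51% in A485 (SD, n = 4 per group), with overlapping groups (exact permutation p = 0.229, adjusted p = 0.248), so a shift between the catalytic subunits was not detectable although both fell. Setd1a against Setd1b was 78.8 ± 6.56% in control and 91.6 ± 4.82% in A485 (SD, n = 4 per group), with overlapping groups and an exact permutation p = 0.0571 (adjusted p = 0.0825). The pairs of Setdb1, Kdm3a and Kdm5a had differences of 6.36, 6.62 and 2.07 percentage points (exact permutation p = 0.371, 0.171 and 0.171). When CPM, which ignores length, replaced TPM, the exact permutation test's adjusted p was 0.0743 for the Kdm1a pair and 0.0531 for the other 7 pairs, so that all 8 missed the threshold. In those 7 pairs p stayed at 0.0286, and its adjusted value moved because the Kdm1a pair, at 0.0571, no longer shared it.

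**Figure D5:**
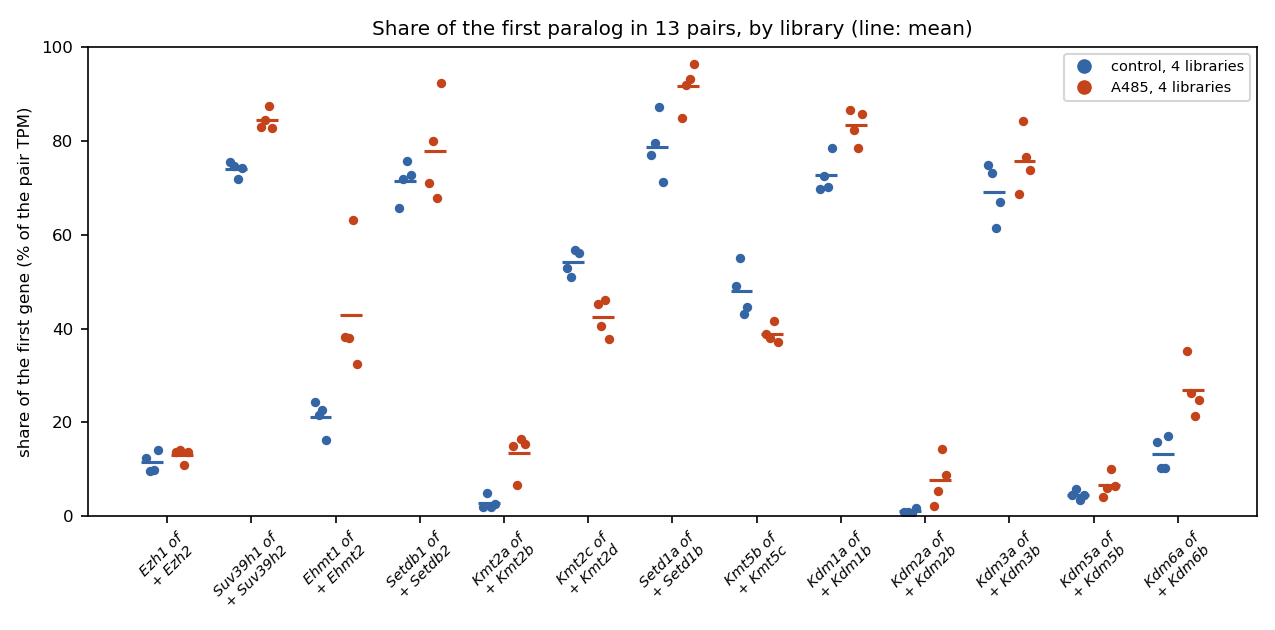
Share of the first gene in the summed TPM of each of 13 paralog pairs (y axis, percent), by library, for control (blue) and A485 (red), with a line at the group mean. Suv39h1 lies at 71.9 to 75.6% in control and 82.6 to 87.4% in A485, while the share of Ezh1 overlaps.

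By mark, the summed TPM of H3K36 methyltransferase genes went from 6.71 ± 0.128 to 15.9 ± 3.20 TPM (SD, n = 4 per group), that of H3K9 methyltransferase genes from 17.4 ± 1.61 to 30.9 ± 6.92 TPM and that of the PRC2 core from 112.2 ± 11.95 to 58.8 ± 1.39 TPM. The H3K9 and PRC2 sums follow their most abundant members, Suv39h1 and Eed. Among the H3K36 genes Setd2, the most abundant in control, was at 1.877 TPM in control and 2.48 TPM in A485. Nsd3 went from 1.155 to 4.775 TPM and Nsd2 from 0.2425 to 2.312 TPM. The H3K4 sum went from 66.0 ± 4.05 to 85.1 ± 5.98 TPM. Its most abundant member was Smyd3, at 36.2 ± 2.82 TPM in control and 53.7 ± 11.96 TPM in A485. Smyd3 did not pass the test, and its level on the TPM scale is uncertain. Smyd2, the next most abundant, did not pass either. Setd1a, the most abundant H3K4 gene that rose, was at 0.78 TPM in control and 2.298 TPM in A485. The H4K20 sum went from 19.95 ± 0.701 to 27.3 ± 4.46 TPM, although no H4K20 gene passed the test. TPM holds no composition factor, and these sums were not tested. The summed demethylase TPM was 41.4 ± 3.33 in control and 39.9 ± 5.21 in A485, within the spread of the libraries.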

How the data were processed

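RNA of 4 control and 4 A485 pools was measured after preamplification of cDNA and transposase-based library construction. The authors deposited estimated counts, TPM, FPKM and normalized counts (a signal scaled by 1 factor per library) per gene, with a log2 fold change and p-values and q-values of their own, per the file headers. Tools listed in the submitters' processing notes, with no role stated, are RSEM 1.2.28, HISAT2 2.2.1 and DESeq2 1.40.2, on GRCm38.p6. No source used here gives the strand handling. Of the deposited estimated counts 18.2% were not whole, and they were rounded. Totals of 23641781 to 25677701 per library set the precision, and examples of genes with few counts are named.

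Genes were filtered with filterByExpr (edgeR 4.0.16, R 4.3.3), scaled by TMM and tested with the robust quasi-likelihood test over 12936 genes with Benjamini-Hochberg adjustment at 0.05. Standard errors are the absolute log2 fold change over the root of F, and 95% intervals take the t quantile at 6 degrees of freedom. Fold changes are A485 over control. Exact permutation tests used scipy 1.17.1. Alternatives were DESeq2 1.42.0, limma-voom (limma 3.58.1), other scalings, filters and dispersion, the replicate block and libraries left out. FPKM served for implied transcript length, and normalized counts were not used.

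The members, lists and pairs were chosen with earlier results of these data known. Per-library values are given for members past the threshold with at least a 2-fold change and for a list of well-studied enzymes; other members have ranges. Of each partner list the 3 of smallest p are named, together with 7 genes set by name. Kdm5d was left out. The result of 1 partner gene is not reported here.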

Additional observations from a re-analysis of the deposited data

Results flagged for a closer look

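In 4 of 148 groups of 4 libraries examined, 1 library lay far from the other 3 by Dixon's criterion at 95%; chance marks about 1 in 20 groups. Kdm5a stood at 4.785 CPM in control replicate 2, against 3.584 to 3.743 CPM in the other controls. Kmt2c stood at 19.85 CPM in control replicate 4, against 14.44 to 15.26 CPM. Ehmt2 stood at 5.546 CPM in A485 replicate 3, against 12.91 to 14.15 CPM. The share of Kmt2a in its sum with Kmt2b was 6.633% in A485 replicate 2, against 14.85 to 16.48%.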

How the results depend on the processing

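Of the 32 members called, 22 (11 higher and 11 lower) kept their call in every one of the 19 alternatives that tested them. Total-count scaling gave 23 members higher and 11 lower, 10 partners lower and 68.2% of calls in the higher direction (54.2% with TMM). Partners higher numbered 9 with the filter of 5 CPM in 4 libraries, which tested fewer genes and gave 2526 genes higher in all, and 9 without A485 replicates 3 and 4. With the replicate block, 14 members rose and 17 fell, Kdm4b lost its call (adjusted p = 0.0854) and Mllt6 gained one (adjusted p = 0.0439). No pairing by number was seen. Deviations of same-numbered libraries correlated at 0.0051, 0.014, 0.10 and 0.067, and those of differently numbered libraries at -0.1266 to 0.1432. Whether same-numbered pools shared a litter or day was not tested. With CPM in place of TPM the 8 called share differences were 12.59 (Suv39h1), 23.36 (Ehmt1), 22.99 (Kmt2a), -11.2 (Kmt2c), -7.261 (Kmt5b), 13.3 (Kdm1a), 10.97 (Kdm2a) and 12.22 (Kdm6a) percentage points, past the adjusted threshold in no pair: p left its minimum in the Kdm1a pair, which raised the adjusted value of the other 7 at the same p. Low depth limits Kmt2a and Setd7, with 24 and 23 control counts. It also limits Kdm4d (48 control counts), Smyd1 (36 A485 counts) and the partner gene Phf2 (29 control counts).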
